A study of Homo sapiens with 35 samples.

Results

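H9 human embryonic stem cells were compared after 48 h in a mesendoderm-inducing medium and at the moment of seeding. The comparison rests on 6 of the 35 libraries in the series: the 3 libraries of cells in BA at 48 h and the 3 libraries of cells at time zero (t0), chosen by their names in the deposited count table, with the replicate number as a block. H9 is an established line of human embryonic stem cells in the primed state. At t0 the cells had been grown in E8, a defined medium that keeps pluripotency, on Matrigel, and were seeded as single cells. BA is E6, the same base medium without the growth factors of E8, to which BMP4 and Activin A were added at 40 ng/mL. The series also holds cells in E6 alone, the control for spontaneous differentiation, and in E8, the pluripotency control, and 3 libraries each at 48 h in E6, at 48 h in E8 and at 24 h in BA served as references here. All of these cells carry no stated genetic change. BA at 48 h and t0 differ in medium, in added factors and in 48 h of culture after seeding, which cannot be told apart from these 6 libraries alone. Whether the replicates came from separate cultures is not stated in the labels, so the spread that the p-values measure may be technical. It is the spread left after the replicate block, pooled over the 15 libraries of the 5 groups with 3 replicates.

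BMP4 signals through type I and type II receptor kinases to SMAD1, SMAD5 and SMAD9, and Activin A signals through related receptors to SMAD2 and SMAD3, as Nodal does. In the early embryo BMP, Nodal and WNT signals start the primitive streak, the strip where epiblast cells leave the epithelium and become mesoderm and definitive endoderm. TBXT, EOMES and MIXL1 are transcription factors of streak cells, from which MESP1-positive mesoderm and SOX17-positive endoderm arise.

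The 6 libraries held 16390111 to 32552740 counts, so that genes under about 1 CPM (counts scaled by library total and TMM factor) rest on few reads. Replicate 1 stood apart from replicates 2 and 3 in both groups. On the log2 CPM scale, replicates 2 and 3 correlated across genes at r = 0.995 at t0 and 0.994 in BA, against 0.935 for replicate 1 with either at t0 and 0.896 and 0.903 in BA. Counts for ribosomal protein genes made up 1.32% and 1.28% of replicate 1 at t0 and in BA and 4.70% to 5.05% of the other 4 libraries, and mitochondrial counts 1.86% and 1.61% against 2.5% to 5.51%. Their part in the results was not tested. For this reason values are given by library, in the order replicate 1, 2 and 3, and counts from the fit on replicates 2 and 3 only are given for most gene lists. At t0 the pluripotency genes POU5F1 (456, 1390 and 1050 CPM), SOX2 (227, 215 and 211 CPM) and LIN28A (1422, 1470 and 1418 CPM) were present in every library. The streak and endoderm genes TBXT, EOMES and SOX17 were each below 0.3 CPM in every t0 library.

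In edgeR's quasi-likelihood test with the replicate block, 6153 of 21554 tested genes (28.5%) passed a Benjamini-Hochberg adjusted p below 0.05. Of these, 3512 were higher in BA (16.3% of tested genes) and 2641 were lower (12.3%), and the median log2 change over all tested genes was 0.00. A change of at least 2-fold was reached by 2160 of the higher and 777 of the lower genes. The numbers depend on the model. Without the block 1373 genes were called, 990 higher (4.59%) and 383 lower (1.78%), so the share of higher genes among those called moved from 57.1% to 72.1%. Fitted on the 6 libraries alone with the block, 2187 genes were called, of which 69.5% were higher. Scaling by library totals alone moved the share of higher genes to 50.9%. With replicates 2 and 3 only, 5490 genes were higher (25.2%) and 5261 lower (24.1%), so a list's counts in that fit are to be read against these shares. A list's counts in the main fit are likewise to be read against 16.3% higher and 12.3% lower, and those without the block against 4.59% and 1.78%.

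Streak and mesendoderm genes had the highest median log2 change of the 29 gene lists described here, although in the pairs of replicates 2 and 3 the median difference was larger for BMP-SMAD targets (3.64 and 3.55, against 2.72 and 2.80 for streak genes). All 20 members passed the filter on low counts, 17 rose and none fell, against 16.3% of all tested genes higher and 12.3% lower, and their median log2 change was 5.61. TBXT, the T-box factor of the streak and nascent mesoderm, was at 0.212, 0.0324 and 0.211 CPM at t0 and 91.3, 27.3 and 23.4 CPM in BA (log2 change 8.22 ± 0.83 (SE), adjusted p = 7.35e-05). EOMES, a T-box factor that acts downstream of Nodal, was at 0.159, 0.227 and 0.141 CPM at t0 and 1019, 43.1 and 44.7 CPM in BA (log2 change 10 ± 0.65 (SE), adjusted p = 4.23e-06). For both genes every BA library lay far above every t0 library. MIXL1, a homeobox factor of the streak, was at 0.690, 0.744 and 0.740 CPM at t0 and 702, 32.6 and 37.6 CPM in BA (log2 change 7.11 ± 0.84 (SE), adjusted p = 0.000198). GSC, an organizer homeobox gene, was at 0.106, 0.0324 and 0.106 CPM at t0 and 22.1, 1.06 and 1.07 CPM in BA (log2 change 5.72 ± 0.81 (SE), adjusted p = 0.000601). MESP1, the factor of the earliest mesoderm, was at 0.0531, 0.0647 and 0.0705 CPM at t0 and 43.3, 4.63 and 3.5 CPM in BA (log2 change 7.32 ± 1.16 (SE), adjusted p = 0.00111). In each of these genes the groups did not overlap, and replicate 1 of BA held the highest value, from 3.34-fold above the next library for TBXT to 22.8-fold for EOMES.

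**Figure D1:**
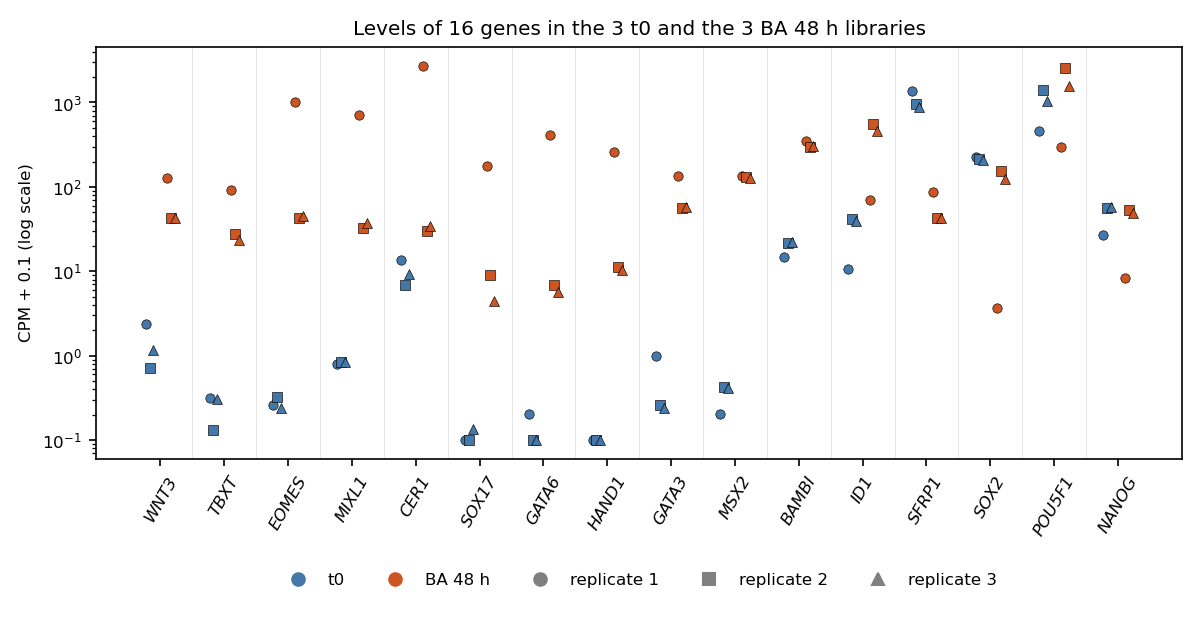
CPM plus 0.1 on a log axis for 16 genes in the 3 t0 libraries (blue) and the 3 BA libraries at 48 h (orange), with a marker shape for each replicate. EOMES reaches 1019 CPM in BA replicate 1 and 43.1 and 44.7 CPM in replicates 2 and 3, while MSX2 and BAMBI lie close together in all 3 BA libraries.

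EVX1, a homeobox gene of the posterior streak, had no count in the t0 libraries and stood at 134, 6.58 and 6.22 CPM in BA, at least 813-fold higher against a floor of 3 counts over the t0 group, and at least 166-fold without BA replicate 1. SP5, a zinc-finger gene induced by WNT, held 3 counts at t0 and stood at 61.4, 36.2 and 27.8 CPM in BA, a ratio of 978 with a 95% interval of 334 to 4746 that covers counting error only. LHX1, a LIM homeobox factor of the streak and head organizer, was at 0.478, 0.0647 and 0.141 CPM at t0 and 466, 3.34 and 3.99 CPM in BA (log2 change 8.12 ± 1.27 (SE), adjusted p = 0.00104). CER1, a secreted antagonist of Nodal, BMP and WNT, was at 13.5, 6.70 and 9.09 CPM at t0 and 2726, 30.0 and 34.5 CPM in BA (log2 change 4.44 ± 1.23 (SE), adjusted p = 0.0194). Its BA replicate 1 was 79.0-fold above the next library, and its log2 change was 2.43 without that library. Leaving out any of the t0 libraries ended the call for CER1, with adjusted p of 0.0724, 0.0540 and 0.0513 without t0 replicates 1, 2 and 3. The other members that rose with small counts included FGF4, FGF8, FGF17, TBX6 and WNT3A, at log2 changes between 2.56 and 5.88. The 3 members that were not called were TDGF1, the Nodal co-receptor (228, 493 and 479 CPM at t0 and 261, 327 and 332 CPM in BA, adjusted p = 0.513), FOXH1, a SMAD2 partner (log2 change 0.18, adjusted p = 0.608), and FOXA2. FOXA2, a forkhead factor of endoderm and anterior streak, was at 1.49, 0.615 and 0.352 CPM at t0 and 8.93, 0.0662 and 0.0610 CPM in BA, so that only BA replicate 1 lay above the t0 libraries (adjusted p = 0.851).

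The size of these changes moved with the library left out. In the fits that each leave out 1 library, the log2 change of EOMES was as low as 8.18 without t0 replicate 1, that of MIXL1 5.67 without t0 replicate 1, that of GSC 4.24 without t0 replicate 1, and that of LHX1 5.51 without BA replicate 1. TBXT moved to 9.08 without t0 replicate 3, MESP1 to 6.22 without BA replicate 1 and SP5 to 10.66 without t0 replicate 2. With replicates 2 and 3 only, the log2 changes were 7.76 for TBXT, 7.91 for EOMES, 5.60 for MIXL1, 3.95 for GSC, 5.90 for MESP1 and 5.17 for LHX1. All 17 higher members were also higher in that fit, beside TDGF1 and FOXA2, which were then lower. Without the replicate block 14 of the 20 members rose.

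Of 18 genes of definitive endoderm, 15 passed the filter, 10 rose and none fell, with a median log2 change of 3.44. FOXA1, HNF4A and TTR did not pass it. SOX17, the SRY-box factor that marks this lineage, had 1 count over the t0 libraries and stood at 179, 9.06 and 4.30 CPM in BA, a ratio of 3141 with a 95% counting interval of 563 to 124094. GATA6, a zinc-finger factor of endoderm and mesoderm (chromosome 18, 22169443 to 22202528, + strand, GRCh38), had 2 t0 counts and stood at 416, 6.75 and 5.64 CPM in BA, a ratio of 3353 with an interval of 928 to 27695. GATA4 was at 0.0531, 0 and 0.176 CPM at t0 and 129, 1.65 and 1.68 CPM in BA (log2 change 7.57 ± 1.34 (SE), adjusted p = 0.00202). Each of these 3 genes was high in BA replicate 1 and below 10 CPM in replicates 2 and 3. The chemokine receptor CXCR4, used to sort endoderm, was at 0.584, 0.938 and 1.66 CPM at t0 and 17.1, 5 and 4.82 CPM in BA (log2 change 3.5 ± 0.89 (SE), adjusted p = 0.0131). KIT, a receptor tyrosine kinase also used as an endoderm marker, rose by less, with 10.7, 14.3 and 13.6 CPM at t0 and 57.4, 25.3 and 30.0 CPM in BA (log2 change 1.59 ± 0.28 (SE), adjusted p = 0.002). HHEX, a homeobox factor of anterior endoderm, rose at low counts (log2 change 3.44 ± 0.71 (SE), adjusted p = 0.00464), and PRDM1 rose with nearly all of its signal in BA replicate 1 (1.54, 0.777 and 1.30 CPM at t0 and 97.3, 2.48 and 2.13 CPM in BA, log2 change 3.85 ± 1.31 (SE), adjusted p = 0.0471). Without BA replicate 1 the ratios were 514 for SOX17 and 241 for GATA6. In the fits that each leave out 1 library, the log2 change of GATA4 ran from 4.94 to 10.32, the highest without t0 replicate 3. Without the block 5 of the 15 endoderm genes were higher, and with replicates 2 and 3 only 12 were higher and 3 lower. Fewer were called against the media at the same time. Set against E6 at 48 h, 4 of the 15 were higher in BA and 1 lower, and against E8 5 and 1. Of all tested genes 12.4% were higher and 9.72% lower against E6, and 10.3% and 7.31% against E8.

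Among 25 genes of nascent and cardiovascular mesoderm, 19 passed the filter, 16 rose and none fell, with a median log2 change of 4.05. Higher members numbered 10 without the block and 19 in replicates 2 and 3 only, and neither fit had a lower one. Those that did not pass were TBX20, HAND2, FOXF1, MSGN1, MEOX1 and NKX2-5, most of which are known from later mesoderm. HAND1, a basic helix-loop-helix factor of lateral and extraembryonic mesoderm, had no t0 count and stood at 262, 11.2 and 10.2 CPM in BA, at least 1554-fold higher, and at least 279-fold without BA replicate 1. TBX3, a T-box repressor that BMP induces, was at 0.318, 0.0324 and 0 CPM at t0 and 457, 10.6 and 11.8 CPM in BA (log2 change 10.48 ± 0.50 (SE), adjusted p = 5.07e-07). APLNR, the apelin receptor of migrating mesoderm, was at 3.24, 1.23 and 0.952 CPM at t0 and 2686, 57.7 and 69.8 CPM in BA (log2 change 7.41 ± 0.68 (SE), adjusted p = 4.06e-05). ISL1, a LIM homeobox factor of cardiac progenitors, was at 0.106, 0.0324 and 0.0352 CPM at t0 and 56.2, 0.629 and 1.01 CPM in BA (log2 change 7.53 ± 0.78 (SE), adjusted p = 8.92e-05). KDR, the VEGF receptor of vascular progenitors, was already present at t0, with 97.9, 56.5 and 56.6 CPM at t0 and 372, 165 and 173 CPM in BA (log2 change 1.77 ± 0.25 (SE), adjusted p = 0.000595). PDGFRA, a receptor of paraxial and cardiac mesoderm, was at 1.27, 1.04 and 0.987 CPM at t0 and 111, 2.75 and 2.77 CPM in BA (log2 change 4.05 ± 1.08 (SE), adjusted p = 0.0168), so its rise lay almost wholly in replicate 1. The call for PDGFRA was lost without t0 replicate 1 (adjusted p = 0.0787) and without t0 replicate 3 (0.0538), and its log2 change was 1.57 without BA replicate 1. The log2 change of TBX3 was 8.93 without t0 replicate 1 and that of APLNR 6.2 without t0 replicate 1. In bulk RNA, a smaller number of cells of a type and less RNA in each cell cannot be told apart.

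Genes of amnion, trophoblast and surface ectoderm, tissues that BMP4 also induces in human pluripotent cells, rose in part. Of 20 members 14 passed the filter, 8 rose and none fell, with a median log2 change of 2.74. Without the block 7 were higher and with replicates 2 and 3 only 12 were, and none was lower in either. TFAP2A, an AP-2 factor of surface ectoderm, amnion and neural crest, was at 0.159, 0.0324 and 0.141 CPM at t0 and 27.1, 51.6 and 49.4 CPM in BA (log2 change 8.79 ± 0.75 (SE), adjusted p = 2.86e-05). It was higher in replicates 2 and 3 than in replicate 1, unlike TBXT, EOMES and MIXL1, and so was TFAP2C, at 0.478, 1.04 and 2.01 CPM at t0 and 26.8, 44.8 and 46.4 CPM in BA (log2 change 5.17 ± 0.47 (SE), adjusted p = 4.09e-05). GATA2, shared by trophoblast and blood precursors, was at 0.318, 0 and 0.106 CPM at t0 and 45.6, 23.8 and 23.5 CPM in BA (log2 change 7.97 ± 0.49 (SE), adjusted p = 2.91e-06). Without BA replicate 1 TFAP2A changed by 9.60 on the log2 scale, and without t0 replicate 1 GATA2 changed by 8.78. WNT6 had no t0 count and was at least 13-fold higher. The keratin KRT7 (0.584, 3.56 and 2.47 CPM at t0 and 0.197, 3.97 and 2.44 CPM in BA), the amnion gene GABRP (3.56, 1.94 and 2.86 CPM at t0 and 1.31, 3.64 and 3.99 CPM in BA) and VTCN1 (0.318, 0.162 and 0.211 CPM at t0 and 0, 0.331 and 0.457 CPM in BA) were not called, at adjusted p of 0.91, 0.873 and 0.688. TFAP2B, CGA, ELF5, TP63, KRT5 and KRT14 did not pass the filter.

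Targets of the BMP-SMAD branch were the list in which every member was called. Its members were chosen with earlier results of these data known, so this count is not an independent test. All 18 rose, with a median log2 change of 4.2, and the groups did not overlap for 16, against 11.9% of all tested genes with every BA library above every t0 library. MSX2, a homeobox gene that BMP induces in many tissues (chromosome 5, 174724533 to 174730893, + strand, GRCh38), was at 0.106, 0.324 and 0.317 CPM at t0 and 135, 130 and 126 CPM in BA (log2 change 8.94 ± 0.40 (SE), adjusted p = 3.16e-07). BAMBI, a decoy receptor that dampens TGF-beta and BMP signals (chromosome 10, 28677342 to 28682939, + strand), was at 14.8, 21.8 and 21.9 CPM at t0 and 351, 299 and 307 CPM in BA (log2 change 4.10 ± 0.20 (SE), adjusted p = 7e-07). In both genes the 3 BA libraries lay within 1.17-fold of each other. SAMD11 was at 0.0531, 0.259 and 0.106 CPM at t0 and 99.8, 68.1 and 50.3 CPM in BA (log2 change 8.85 ± 0.49 (SE), adjusted p = 1.47e-06). SMAD6, the inhibitory SMAD of the BMP branch, was at 3.82, 2.49 and 3.17 CPM at t0 and 466, 88.6 and 80.2 CPM in BA (log2 change 5.82 ± 0.58 (SE), adjusted p = 6.56e-05). SMAD9, a BMP receptor SMAD, was at 1.49, 1.04 and 0.423 CPM at t0 and 47.6, 9.40 and 10.7 CPM in BA (log2 change 4.30 ± 0.57 (SE), adjusted p = 0.000394). The inhibitors of DNA binding ID1, ID2, ID3 and ID4, which are immediate targets of BMP SMADs, rose with log2 changes of 3.49, 2.05, 1.91 and 2.94. ID1 was at 10.5, 41.5 and 39.7 CPM at t0 and 70.2, 555 and 456 CPM in BA, so that BA replicate 1 lay above the t0 libraries by less than replicates 2 and 3 did. NOG, a secreted BMP antagonist, was at 0.690, 0.162 and 0.106 CPM at t0 and 26.2, 34.0 and 24.6 CPM in BA (log2 change 6.69 ± 1.12 (SE), adjusted p = 0.00147).

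The smallest change of the 18 was that of SMAD7, the inhibitory SMAD shared by both branches (38, 44.9 and 41.4 CPM at t0 and 128, 63.0 and 61.1 CPM in BA, log2 change 0.95 ± 0.20 (SE), adjusted p = 0.00445). The largest adjusted p was that of MSX1, a homeobox gene whose signal lay mostly in BA replicate 1 (0.106, 0.129 and 0.176 CPM at t0 and 73.6, 1.09 and 1.52 CPM in BA, log2 change 5.84 ± 1.80 (SE), adjusted p = 0.0318). MSX1 lost its call without BA replicate 1 (adjusted p = 0.0925) and without t0 replicates 1, 2 and 3 (0.153, 0.0743 and 0.0663), and its log2 change was 3.92 without t0 replicate 1. SMAD6 changed by 4.93 without BA replicate 1 and NOG by 7.66 without t0 replicate 1 on the log2 scale. With replicates 2 and 3 only all 18 were higher, and without the block 12 were. Set against the cells in E6 at 48 h, 17 of the 18 were higher in BA, where 12.4% of all tested genes were higher and 9.72% lower, and against E8 at 48 h also 17, where 10.3% were higher and 7.31% lower. Between 24 h and 48 h in BA, 2 of the 18 were higher at 48 h and 2 lower, where 6.32% of all tested genes were higher and 3.69% lower. These comparisons share the BA libraries at 48 h.

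Promoter sequence is shown for 3 of the 5 matched BMP targets that hold a known SMAD element, as examples of both elements, since all members of the list rose. The windows hold the 250 bases upstream of a RefSeq transcript start on GRCh38.p14, 5′ to 3′ on the gene's strand, with the motif in capitals. RefSeq promoters were matched for 14 of the 18 genes, and TBX3, NOG, DLX5 and HEY1 were not matched. The first motif, GGCGCC, is a GC-rich element bound by BMP SMADs, and the other, GTCTAGAC, is the palindromic SMAD-binding element. Each reads the same on both strands.
BAMBI (chr10:28677271-28677520, plus strand): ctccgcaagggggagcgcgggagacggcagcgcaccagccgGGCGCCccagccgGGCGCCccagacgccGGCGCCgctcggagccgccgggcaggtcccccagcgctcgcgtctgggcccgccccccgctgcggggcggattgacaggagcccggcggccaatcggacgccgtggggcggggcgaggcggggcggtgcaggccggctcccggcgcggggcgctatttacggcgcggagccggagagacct
SAMD11 (chr1:925481-925730, plus strand): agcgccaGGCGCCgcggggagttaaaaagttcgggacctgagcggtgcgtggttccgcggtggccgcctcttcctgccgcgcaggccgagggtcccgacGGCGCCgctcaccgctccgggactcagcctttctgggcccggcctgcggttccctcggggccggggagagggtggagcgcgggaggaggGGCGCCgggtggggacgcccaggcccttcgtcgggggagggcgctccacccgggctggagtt
SMAD6 (chr15:66701986-66702235, plus strand): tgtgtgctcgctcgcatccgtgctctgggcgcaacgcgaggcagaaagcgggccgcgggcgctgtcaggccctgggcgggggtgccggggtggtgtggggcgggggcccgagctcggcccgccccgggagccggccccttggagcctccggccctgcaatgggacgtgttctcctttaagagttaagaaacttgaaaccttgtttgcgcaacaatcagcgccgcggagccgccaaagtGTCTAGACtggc
BAMBI and SAMD11 each hold GGCGCC 3 times, starting at 209, 196 and 181 bases before the start in BAMBI and at 243, 151 and 62 bases before it in SAMD11. SMAD6 holds GTCTAGAC once, 12 bases before the start, and no GGCGCC. Across all 35116 RefSeq windows of this length, 16.4% hold GGCGCC and 0.182% hold GTCTAGAC. By gene, 19.0% of 27305 hold GGCGCC in some window, and 4 of the 14 matched targets do: BAMBI, SAMD11, GATA2 and GATA3. Only SMAD6 of the 14 holds GTCTAGAC. A match is a stretch of letters, not a measured binding site.

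Genes known to answer Activin and Nodal changed less uniformly than the BMP targets, in lists both chosen with earlier results of these data known. All 15 passed the filter, 9 rose and none fell, with a median log2 change of 1.13. When the replicate block was left out 4 were higher and none lower, and in replicates 2 and 3 alone 11 and 2. Besides EOMES, MIXL1, GSC and CER1, the risers included PMEPA1, a feedback inhibitor of the pathway, at 49.4, 32.8 and 33.9 CPM at t0 and 114, 70.6 and 64.9 CPM in BA (log2 change 1.13 ± 0.14 (SE), adjusted p = 0.00026). NODAL itself was at 1.43, 1.78 and 1.27 CPM at t0 and 2.23, 14.8 and 14.8 CPM in BA (log2 change 2.78 ± 0.49 (SE), adjusted p = 0.00197), low in BA replicate 1 and higher in replicates 2 and 3. GDF3, a Nodal-related ligand, had values of 3.87, 6.67 and 5.68 CPM at t0 and 0.656, 45.8 and 42.3 CPM in BA, and so moved down in replicate 1 and up in the others. It was called at an adjusted p of 0.0477, and leaving out any library but BA replicate 1 ended the call, with adjusted p from 0.0888 to 0.211. Without BA replicate 1 its log2 change was 3.02. The Nodal inhibitors LEFTY1 (15.5, 13.9 and 14 CPM at t0 and 7.61, 11.3 and 13 CPM in BA) and LEFTY2 (6.42, 9.87 and 11.1 CPM at t0 and 4.79, 5.39 and 4.69 CPM in BA) were not called, at adjusted p of 0.844 and 0.409. At 24 h in BA they stood at 69.4 ± 54.2 CPM and 32.0 ± 20.1 CPM (SD, n = 3), and LEFTY2 was lower at 48 h than at 24 h (log2 difference -2.66, adjusted p = 0.0412).

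Of the ligands and antagonists of the BMP family, 18 of 19 passed the filter, 11 rose and none fell, with a median log2 change of 1.74. The fit without the block called 5 higher and none lower, and that on replicates 2 and 3 only called 10 and 1. The mRNA of BMP4, the factor that was added, was at 2.92, 1.13 and 1.02 CPM at t0 and 222, 55.0 and 60.7 CPM in BA (log2 change 6.00 ± 0.50 (SE), adjusted p = 2.46e-05). BMP4 was thus above t0 in every replicate, whereas BMP2, its close relative, was at 3.77, 10.1 and 11.1 CPM at t0 and 417, 7.28 and 8.53 CPM in BA and was not called (adjusted p = 0.132). The antagonist BMPER (0.478, 0.259 and 0.247 CPM at t0 and 191, 3.77 and 3.54 CPM in BA) rose, and so did follistatin, FST, which binds Activin (61.0, 20.4 and 24.5 CPM at t0 and 216, 67.8 and 77.0 CPM in BA, log2 change 1.78 ± 0.25 (SE), adjusted p = 0.000519). BMP7 was at 13.9, 2.27 and 3.00 CPM at t0 and 11.4, 36.9 and 35.0 CPM in BA (log2 change 2.63 ± 0.62 (SE), adjusted p = 0.00902), with a lower value in BA than at t0 in replicate 1. Among 21 receptors and SMADs of the family, 9 rose and none fell, and their median log2 change was 0.42. Counts of higher and lower members were 4 and none without the block, and 12 and 1 for replicates 2 and 3 only. The BMP receptors ACVR1 (16.8, 19.4 and 19.0 CPM at t0 and 74.8, 42.2 and 43.5 CPM in BA, log2 change 1.57 ± 0.19 (SE), adjusted p = 0.000225), BMPR2 (59.5, 24.6 and 23.7 CPM at t0 and 259, 57.9 and 63.2 CPM in BA, log2 change 1.68 ± 0.31 (SE), adjusted p = 0.00252) and BMPR1A (91.0, 46.0 and 75.9 CPM at t0 and 129, 175 and 175 CPM in BA, log2 change 1.30 ± 0.24 (SE), adjusted p = 0.00262) rose. The receptor of TGF-beta, TGFBR1 (adjusted p = 0.72), and SMAD5 (adjusted p = 0.221) were not called.

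WNT ligands and WNT targets formed the next group. Of 19 ligands 15 passed the filter, 10 rose and 1 fell, with a median log2 change of 2.58. In the fit without the block 5 were higher and none lower, and with replicates 2 and 3 only 13 and 1. WNT3, the ligand needed to form the streak in the mouse (chromosome 17, 46762506 to 46833154, - strand, GRCh38), was at 2.28, 0.615 and 1.06 CPM at t0 and 126, 42.3 and 42.8 CPM in BA (log2 change 5.76 ± 0.21 (SE), adjusted p = 6.23e-08). It shared the smallest adjusted p of the comparison with GATA3 and SFRP1. WNT8A was at 0.265, 0.0971 and 0.0352 CPM at t0 and 11.7, 7.64 and 8.99 CPM in BA (log2 change 6.54 ± 0.59 (SE), adjusted p = 3.93e-05) and WNT5B at 2.81, 1.49 and 1.55 CPM at t0 and 81.4, 14.6 and 14.5 CPM in BA (log2 change 3.85 ± 0.71 (SE), adjusted p = 0.00253). WNT5A, a ligand of the non-canonical branch, was at 14, 4.34 and 5.04 CPM at t0 and 479, 11.7 and 14.3 CPM in BA (log2 change 3.24 ± 0.74 (SE), adjusted p = 0.00811), and its log2 change was 1.60 without BA replicate 1. The ligand that fell was WNT10B (0, 10.4 and 15.9 CPM at t0 and 0.0656, 5.06 and 5.91 CPM in BA, adjusted p = 0.0475). WNT8A changed by 7.14 without BA replicate 1.

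Of 21 WNT targets and feedback genes, 20 passed the filter, 12 rose and 2 fell, with a median log2 change of 2.67. Higher members numbered 5 without the block and 12 in replicates 2 and 3 only, and lower members 2 and 5. NOTUM, a secreted enzyme that inactivates WNT, had no t0 count and stood at 26.1, 12.2 and 11.5 CPM in BA, at least 381-fold higher. TCF7, a nuclear effector of the pathway, was at 7.43, 8.96 and 9.48 CPM at t0 and 92.2, 37.4 and 41.3 CPM in BA (log2 change 2.65 ± 0.35 (SE), adjusted p = 0.000385), and RNF43, a ligase that removes WNT receptors, at 1.11, 0.647 and 0.388 CPM at t0 and 3.48, 13.1 and 12.6 CPM in BA (log2 change 3.80 ± 0.68 (SE), adjusted p = 0.00207). LGR5, an R-spondin receptor, was at 0.372, 0 and 0.176 CPM at t0 and 200, 0.397 and 0.366 CPM in BA (adjusted p = 0.00447). Its signal lay in BA replicate 1 alone, its log2 change was 2.83 without that library, and its call was lost without t0 replicate 1 (adjusted p = 0.152). The feedback gene AXIN2 was at 22.1, 24.3 and 21.9 CPM at t0 and 43.8, 12.3 and 12.5 CPM in BA and was not called (adjusted p = 0.611). The 2 members that fell were secreted frizzled-related proteins, which bind WNT ligands. SFRP2 was at 497, 609 and 557 CPM at t0 and 147, 326 and 269 CPM in BA (log2 change -1.14 ± 0.21 (SE), adjusted p = 0.00273). SFRP1 was at 1374, 949 and 884 CPM at t0 and 87.8, 42.5 and 42.6 CPM in BA (log2 change -4.22 ± 0.15 (SE), adjusted p = 6.23e-08), 18.6-fold lower in the fit. Its BA libraries lay below t0 by a like factor in every replicate, with a log2 change of -4.38 in replicates 2 and 3 only.

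Against t0, FGF genes moved in part and the readouts of ERK signalling mostly did not rise. Of 23 FGF ligands and receptors 20 passed the filter, 8 rose and 1 fell, with a median log2 change of 0.78. When the replicate block was left out 6 were higher and 1 lower, and in replicates 2 and 3 alone 13 and 1. FGF4, FGF8 and FGF17, ligands of the streak, were at 3.74, 4.76 and 4.72, 7.55, 1.69 and 1.28 and 27.1, 3.47 and 3.66 CPM in BA and below 0.3 CPM in every t0 library. The receptor FGFR3 was at 50.3, 22.1 and 22.9 CPM at t0 and 115, 238 and 225 CPM in BA (log2 change 2.75 ± 0.37 (SE), adjusted p = 0.000452), whereas the receptor FGFR1 was at 752, 713 and 684 CPM at t0 and 504, 766 and 713 CPM in BA (adjusted p = 0.707). Of 19 ERK feedback genes and ETS targets, 1 rose and 5 fell, with a median log2 change of -0.15. The fit without the block called none higher and 3 lower, and that on replicates 2 and 3 only called 5 and 10. Set against E6 at 48 h, 5 of the 19 ERK and ETS genes were higher in BA and 3 lower. Against E8 at 48 h none were higher and 5 lower. Of all tested genes 12.4% were higher and 9.72% lower against E6, and 10.3% and 7.31% against E8. DUSP6, the phosphatase that removes ERK activity, was at 356, 272 and 238 CPM at t0 and 124, 28.7 and 34.6 CPM in BA (log2 change -2.34 ± 0.36 (SE), adjusted p = 0.00103), and its log2 change was -3.01 without BA replicate 1. The ETS factors ETV1 (161, 89.7 and 88.7 CPM at t0 and 54.3, 31.8 and 36.0 CPM in BA, log2 change -1.41 ± 0.12 (SE), adjusted p = 2.46e-05) and ETV4 (137, 226 and 223 CPM at t0 and 114, 99.0 and 95.7 CPM in BA, log2 change -0.85 ± 0.16 (SE), adjusted p = 0.00295) also fell. IER3 was the member that rose (15.3, 47.9 and 53.2 CPM at t0 and 111, 155 and 138 CPM in BA, log2 change 2.12 ± 0.50 (SE), adjusted p = 0.0094). Of 19 Notch genes 17 passed the filter, 6 rose and 1 fell, against 16.3% and 12.3% of all tested genes. Among the risers HES1 was at 10.5, 14.5 and 13 CPM at t0 and 26.2, 34.1 and 32.6 CPM in BA (log2 change 1.34 ± 0.31 (SE), adjusted p = 0.00906). Counts of higher and lower Notch genes were 1 and none without the block, and 11 and 2 for replicates 2 and 3 only. Set against E6 at 48 h, 2 of the 17 Notch genes were higher in BA and 5 lower, and against E8 2 and 4. The shares of all tested genes in these comparisons are those given above.

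**Figure D2:**
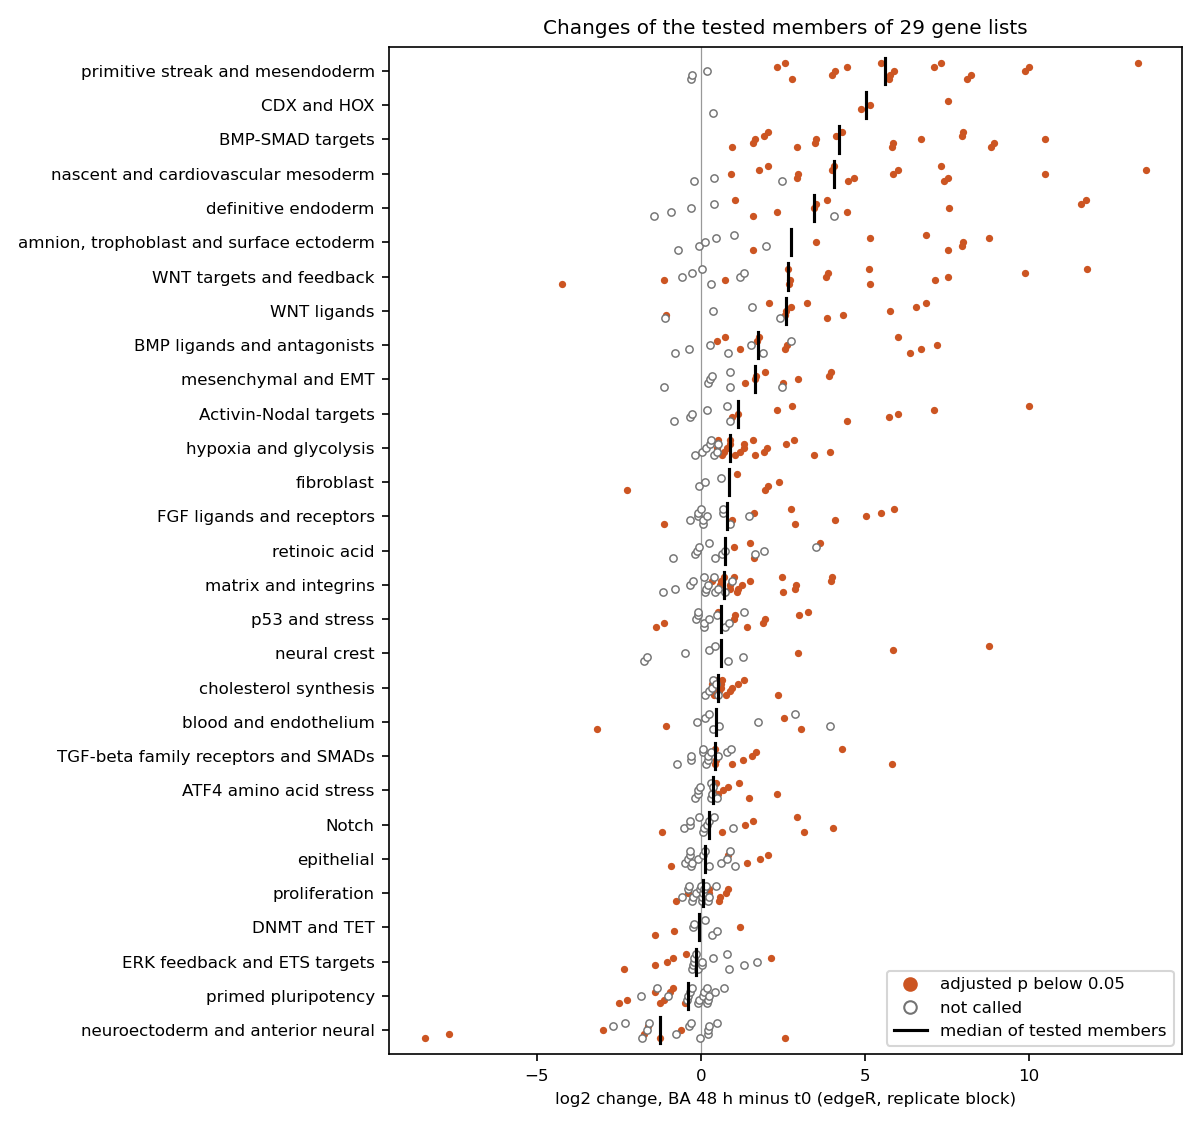
Log2 change from t0 to BA at 48 h of each tested member of 29 gene lists, with called genes filled, the others open and a bar at each list's median. Medians run from 5.61 for the streak genes to -1.24 for the neural genes, and genes can sit on more than 1 list.

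Of the 25 pluripotency genes, which all passed the filter, 8 fell and none rose, with a median log2 change of -0.39. These 8 make up 32% of the list, against 12.3% of all tested genes lower. In the fit without the block none were higher and 6 lower, and with replicates 2 and 3 only 3 and 15. The count thus depends on the replicates used, and several of these genes were lowest in BA replicate 1. POU5F1, the factor OCT4, was at 456, 1390 and 1050 CPM at t0 and 299, 2548 and 1573 CPM in BA and was not called (adjusted p = 0.295). NANOG was at 26.7, 56.9 and 58.3 CPM at t0 and 8.20, 53.9 and 48.6 CPM in BA (adjusted p = 0.509), and its counts, like those of POU5F1, are uncertain because near-identical pseudogenes can take or give reads. SOX2, a factor of pluripotent and neural cells, was at 227, 215 and 211 CPM at t0 and 3.61, 154 and 125 CPM in BA (adjusted p = 0.246). In each of these 3 genes BA replicate 1 held the lowest value of the 6 libraries. SOX2 changed by -0.59 without BA replicate 1 on the log2 scale. PRDM14, a repressor of differentiation, was at 170, 115 and 128 CPM at t0 and 9.71, 54.4 and 47.8 CPM in BA (adjusted p = 0.0559), so that its groups did not overlap and it missed the threshold. USP44, a deubiquitinase of pluripotent cells, was at 307, 217 and 218 CPM at t0 and 11.4, 50.3 and 58.5 CPM in BA (log2 change -2.51 ± 0.54 (SE), adjusted p = 0.00592) and changed by -1.92 without BA replicate 1. DPPA4 (832, 811 and 797 CPM at t0 and 215, 385 and 393 CPM in BA, log2 change -1.24 ± 0.25 (SE), adjusted p = 0.00379) and the surface protein THY1 (334, 596 and 572 CPM at t0 and 45.7, 145 and 133 CPM in BA, log2 change -2.24 ± 0.21 (SE), adjusted p = 4.52e-05) fell in every replicate. LIN28A (1422, 1470 and 1418 CPM at t0 and 920, 1523 and 1547 CPM in BA, adjusted p = 0.695) and SALL4 (adjusted p = 0.546) were not called.

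DNMT3B, the DNA methyltransferase typical of primed cells, was at 1622, 1645 and 1642 CPM at t0 and 533, 628 and 618 CPM in BA (log2 change -1.40 ± 0.35 (SE), adjusted p = 0.0118), below t0 by a like factor in all 3 replicates, and its call was lost without t0 replicate 3 (adjusted p = 0.0512). DNMT3A was at 264, 225 and 221 CPM at t0 and 138, 127 and 122 CPM in BA (log2 change -0.82 ± 0.11 (SE), adjusted p = 0.000508). Of the 9 DNA methylation genes 8 passed the filter, 1 rose and these 2 fell, against 16.3% of all tested genes higher and 12.3% lower. When the replicate block was left out none were higher and 2 lower, and in replicates 2 and 3 alone 3 and 4. TET2, which oxidises methylated cytosine, rose (11.6, 4.85 and 4.27 CPM at t0 and 27.4, 8.93 and 10.8 CPM in BA, log2 change 1.20 ± 0.27 (SE), adjusted p = 0.00738), and the maintenance enzyme DNMT1 was not called (adjusted p = 0.113).

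Neural genes, of 22 members with 21 past the filter, fell in 7 cases and rose in 1, with a median log2 change of -1.24. Of all tested genes 12.3% were lower and 16.3% higher. Higher members numbered none without the block and 3 in replicates 2 and 3 only, and lower members 2 and 7. SIX6, an eye-field homeobox gene, showed the deepest fall named here, with 27.7, 36.2 and 19.3 CPM at t0 and 0.197, 0.0662 and 0.0305 CPM in BA (log2 change -8.40 ± 0.97 (SE), adjusted p = 0.000175). HESX1, an anterior homeobox gene, was at 2.55, 6.28 and 5.89 CPM at t0 and 0.131, 0.728 and 0.914 CPM in BA (log2 change -3.00 ± 0.52 (SE), adjusted p = 0.00188), and the POU factor POU3F1 at 23.4, 43.8 and 38.8 CPM at t0 and 0.853, 19.9 and 14.3 CPM in BA (log2 change -1.74 ± 0.52 (SE), adjusted p = 0.0276). The call for SOX1, an early neural SRY-box gene, rests on a single library: SOX1 was at 5.15, 0 and 0 CPM at t0 and 0, 0 and 0 CPM in BA, so that t0 replicate 1 alone held counts. Without t0 replicate 1 the adjusted p of SOX1 was 1, and without BA replicate 1 it was 0.402. PAX6, which defines neuroectoderm, was below 1 CPM in all 6 libraries (adjusted p = 0.764). SOX3 went in both directions, at 30.6, 28.2 and 27.7 CPM at t0 and 0.197, 64.5 and 55.3 CPM in BA (adjusted p = 0.843), and OTX2 likewise, at 39.3, 71.6 and 65.5 CPM at t0 and 160, 24.4 and 23.9 CPM in BA (adjusted p = 0.819). RAX was the member that rose, at low counts (0.372, 0.0971 and 0.0352 CPM at t0 and 0.328, 1.29 and 1.04 CPM in BA, log2 change 2.57 ± 0.72 (SE), adjusted p = 0.0207).

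Markers of other cell types that the cultures could hold were also counted. Their counts stand beside 16.3% of all tested genes higher and 12.3% lower. Of 16 blood and endothelial genes 12 passed the filter, 2 rose and 2 fell, and their summed level was 34.3 to 70.4 CPM at t0 and 44.6 to 101 CPM in BA. GATA1, PTPRC, HBE1 and HBZ did not pass the filter, and PECAM1 was below 1 CPM in all 6 libraries. RUNX1, a blood factor also found in early mesoderm, was at 3.87, 1.20 and 1.41 CPM at t0 and 19.8, 7.67 and 8.32 CPM in BA (log2 change 2.54 ± 0.56 (SE), adjusted p = 0.00656). SPI1 also rose (log2 change 3.06), and the members that fell were ERG and TIE1 (log2 changes -3.16 and -1.05). Of 12 fibroblast genes 8 passed, 4 rose and 1 fell, with a summed level of 668 to 771 CPM at t0 and 684 to 812 CPM in BA, and DCN, LUM, FAP and PRRX1 did not pass. Of 12 neural crest genes 10 passed, 3 rose and none fell, with a summed level of 95 to 166 CPM at t0 and 180 to 389 CPM in BA, and SOX10 did not pass. The risers of that list, TFAP2A, MSX1 and SNAI2, are also on the lists of ectoderm or mesoderm. For neural crest the summed level was higher in BA than at t0 in every replicate (166 against 389, 95 against 180 and 97.9 against 182 CPM, t0 first), while for fibroblast genes it was higher in replicate 1 and lower in replicates 2 and 3. The fibroblast sum holds THY1, the member that fell (log2 change -2.24), which is also on the pluripotency list. THY1 made up much of that sum at t0, while COL1A2, POSTN, PDGFRB and TWIST2 rose. Without the block 1 gene rose on each of these 3 lists. The part of these cell types in the results above was not tested.

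Leaving the streak, cells lose epithelial contacts, and genes of both states were examined. Of 19 epithelial genes 4 rose and 1 fell, with a median log2 change of 0.13, against 16.3% of all tested genes higher and 12.3% lower. The fit without the block called none higher and none lower, and that on replicates 2 and 3 only called 12 and 1. The median difference between paired libraries was -0.90 on the log2 scale in replicate 1, 0.47 in replicate 2 and 0.28 in replicate 3, and 8 were higher and 1 lower without BA replicate 1. E-cadherin, CDH1, was at 83.7, 154 and 143 CPM at t0 and 42.4, 431 and 445 CPM in BA (adjusted p = 0.101): BA was 0.507 times the t0 level in replicate 1 and 2.80 and 3.11 times that level in replicates 2 and 3. At 48 h CDH1 was at 179, 391 and 370 CPM in E6 and 127, 280 and 251 CPM in E8. Both media without BMP4 and Activin A were thus above t0 in every replicate. The keratins KRT8 (165, 279 and 260 CPM at t0 and 403, 746 and 669 CPM in BA, log2 change 1.40 ± 0.10 (SE), adjusted p = 5.8e-06) and KRT19 (38.9, 105 and 99.4 CPM at t0 and 125, 504 and 408 CPM in BA, log2 change 2.04 ± 0.13 (SE), adjusted p = 4.23e-06) rose in every replicate. CLDN4 and CRB3, the other 2 that rose, had lower values in BA than at t0 in replicate 1, and both calls were lost in 4 or more of the fits that leave out 1 library, at adjusted p of up to 0.103 for CLDN4 and 0.239 for CRB3.

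Of 16 mesenchymal genes 15 passed the filter, 8 rose and none fell, with a median log2 change of 1.65. Counts of higher and lower members were 3 and none without the block, and 10 and 2 for replicates 2 and 3 only. Fibronectin, FN1, was at 280, 112 and 113 CPM at t0 and 3669, 1754 and 1916 CPM in BA (log2 change 3.98 ± 0.25 (SE), adjusted p = 2.91e-06). MMP2, a matrix protease, was at 120, 82.8 and 72.3 CPM at t0 and 434, 221 and 212 CPM in BA (log2 change 1.65 ± 0.10 (SE), adjusted p = 2.11e-06), and SNAI1, a repressor of CDH1, at 3.56, 9.26 and 8.50 CPM at t0 and 53.2, 23.2 and 20.5 CPM in BA (log2 change 2.49 ± 0.61 (SE), adjusted p = 0.0113). In these 3 genes each BA library lay above each t0 library. SNAI2 was at 5.15, 0.874 and 0.670 CPM at t0 and 83.0, 2.45 and 2.29 CPM in BA (adjusted p = 0.0339), with a log2 change of 1.17 and adjusted p of 0.255 without BA replicate 1 and adjusted p of 0.0930 to 0.101 without each t0 library. N-cadherin, CDH2 (444, 141 and 177 CPM at t0 and 736, 125 and 150 CPM in BA), and vimentin, VIM (207, 216 and 280 CPM at t0 and 501, 144 and 185 CPM in BA), were not called, at adjusted p of 0.535 and 0.71. Both were above t0 in BA replicate 1. CDH11 changed by 1.13 without BA replicate 1 and MMP14 by 0.99 without BA replicate 1 on the log2 scale, against 1.94 and 1.68 in all libraries. Of 32 matrix and integrin genes 30 passed, 17 rose and none fell, with a median log2 change of 0.72. In the fit without the block 7 were higher and none lower, and with replicates 2 and 3 only 24 and 2. The collagens COL6A1 (73.7, 117 and 121 CPM at t0 and 1207, 578 and 486 CPM in BA, log2 change 2.89 ± 0.44 (SE), adjusted p = 0.000844), COL6A2 (24.5, 71.8 and 70.7 CPM at t0 and 269, 436 and 350 CPM in BA, log2 change 2.86 ± 0.36 (SE), adjusted p = 0.000259) and COL5A1 (38.1, 23.3 and 24.6 CPM at t0 and 1648, 155 and 144 CPM in BA, log2 change 4.01 ± 0.69 (SE), adjusted p = 0.00172) rose, and so did ITGA5, the integrin that binds fibronectin (89.8, 53.4 and 53.2 CPM at t0 and 894, 169 and 167 CPM in BA, log2 change 2.47 ± 0.45 (SE), adjusted p = 0.00253).

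Posterior patterning genes were nearly silent. Of 20 CDX and HOX genes 4 passed the filter, and 3 of these rose. CDX1 had 1 t0 count and stood at 8.40, 1.46 and 1.92 CPM in BA, a ratio of 234 with a counting interval of 41.7 to 9300, or 133 without BA replicate 1. CDX2, a marker of posterior mesoderm and of trophoblast, had 1 t0 count and stood at 1.25, 0.198 and 0.366 CPM, a ratio of 36.9 with an interval of 6.23 to 1497, or 22.3 without BA replicate 1, and its adjusted p was 0.0956 without t0 replicate 1. CDX2 had been at 2.03 ± 3.15 CPM (SD, n = 3) at 24 h in BA (log2 difference -0.86, adjusted p = 0.407). HOXD1, at least 3.33-fold higher, rested on 10 counts in BA, and its call was lost without any of replicates 2 and 3 of either group, at adjusted p of 0.0737 to 0.0884. The other 16 HOX genes did not pass the filter.

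Metabolic genes were examined next. All 27 genes of hypoxia and glycolysis passed the filter, 19 rose and none fell, with a median log2 change of 0.87. EGLN3, a prolyl hydroxylase that HIF induces, was at 12.0, 24.4 and 23.4 CPM at t0 and 203, 181 and 186 CPM in BA (log2 change 3.44 ± 0.40 (SE), adjusted p = 0.000191). LDHA, lactate dehydrogenase, was at 571, 771 and 833 CPM at t0 and 671, 2736 and 2996 CPM in BA (log2 change 1.32 ± 0.28 (SE), adjusted p = 0.00541). NDRG1 was at 1.80, 3.14 and 3.95 CPM at t0 and 8.47, 81.1 and 78.1 CPM in BA (log2 change 3.95 ± 0.83 (SE), adjusted p = 0.00531) and BNIP3, a mitophagy receptor, at 22.2, 32.2 and 39.0 CPM at t0 and 67.7, 395 and 379 CPM in BA (log2 change 2.83 ± 0.43 (SE), adjusted p = 0.000855). Replicates 2 and 3 carried most of this change: the median difference between the paired libraries was 0.17 on the log2 scale in replicate 1, 1.07 in replicate 2 and 1.04 in replicate 3. The glucose transporter SLC2A1 (479, 488 and 463 CPM at t0 and 423, 1908 and 1776 CPM in BA) and PGK1 (492, 507 and 551 CPM at t0 and 481, 2214 and 2262 CPM in BA) were called at adjusted p of 0.0357 and 0.0173, and both calls were lost without replicate 2 or 3 of either group, at adjusted p up to 0.174 and 0.0910. SLC2A1 changed by 1.85 without t0 replicate 1, PGK1 by 1.97 without t0 replicate 1 and PFKFB4 by 3.18 without t0 replicate 1. Set against E6 at 48 h, 2 of the 27 genes were higher in BA and 3 lower, and against E8 at 48 h 1 was higher and none lower. Of all tested genes 12.4% were higher and 9.72% lower against E6, and 10.3% and 7.31% against E8. LDHA stood at 1864 ± 827 CPM in E6 and 2009 ± 724 CPM in E8 at 48 h (SD, n = 3). Without the block 7 of the 27 were higher.

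Of 21 cholesterol synthesis genes 15 rose and none fell, with a median log2 change of 0.51. INSIG1, which holds the SREBP sensor in the endoplasmic reticulum, was at 152, 64.1 and 57.4 CPM at t0 and 303, 161 and 159 CPM in BA (log2 change 1.31 ± 0.13 (SE), adjusted p = 7.35e-05). FDPS and MSMO1, enzymes of the pathway, rose with log2 changes of 0.34 and 1.14, and 1 of the 21 was higher without the block. Against E8 at 48 h 15 were higher in BA and against E6 at 48 h 8 were, where 10.3% and 12.4% of all tested genes were higher. Of 20 p53 and stress genes 8 rose and 2 fell. For this list and the others in this paragraph, the share of all tested genes was 16.3% higher and 12.3% lower. Higher members numbered 1 without the block and 14 in replicates 2 and 3 only, and lower members 1 and 2. BTG2 was at 3.13, 2.43 and 3.42 CPM at t0 and 22.7, 30.8 and 30.4 CPM in BA (log2 change 3.25 ± 0.67 (SE), adjusted p = 0.00455), and the p53 target MDM2 was not called (adjusted p = 0.472). Among 17 genes of the ATF4 response 8 rose and none fell. When the replicate block was left out 2 were higher and none lower, and in replicates 2 and 3 alone 7 and 3. DDIT4 was among the 8 that rose (12.4, 19.4 and 25.1 CPM at t0 and 39.2, 143 and 116 CPM in BA, log2 change 2.31 ± 0.32 (SE), adjusted p = 0.000488). Of 15 retinoic acid genes 4 rose and none fell, among them CRABP2 (19.9, 36.0 and 40.9 CPM at t0 and 36.5, 131 and 130 CPM in BA, log2 change 1.48 ± 0.30 (SE), adjusted p = 0.00423). Of the retinoic acid genes, 1 was higher without the block and 9 were with replicates 2 and 3 only, and none was lower in either. CYP26A1, which degrades retinoic acid, was at 4.78, 20.9 and 21.4 CPM at t0 and 268, 23.3 and 22.0 CPM in BA and was not called (adjusted p = 0.0656).

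Of 24 proliferation genes 6 rose and 2 fell, with a median log2 change of 0.05, against 16.3% of all tested genes higher and 12.3% lower. Counts of higher and lower members were 2 and none without the block, and 9 and 7 for replicates 2 and 3 only. MKI67 was at 469, 335 and 372 CPM at t0 and 541, 379 and 426 CPM in BA (adjusted p = 0.0661). The mitotic kinase AURKA rose (79.9, 81.7 and 83.0 CPM at t0 and 112, 116 and 128 CPM in BA, log2 change 0.59 ± 0.09 (SE), adjusted p = 0.000791), and MCM5, a subunit of the replicative helicase, fell (366, 451 and 425 CPM at t0 and 217, 254 and 234 CPM in BA, log2 change -0.77 ± 0.20 (SE), adjusted p = 0.0157), a call that was lost without t0 replicate 2 or 3 (adjusted p of 0.0778 and 0.0847).

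The genes with the largest changes were mostly those already described. Among genes of at least 10 CPM that were called and moved alike in all 3 pairs, the 12 largest fitted rises were HAND1, EVX1, NOTUM, SOX17, GATA6, EVX1-AS, GATA6-AS1, TBX3, EOMES, SP5, PCAT14 and GLIS1. The order of HAND1, EVX1, NOTUM, EVX1-AS and GATA6-AS1 in it rests on fitted values, since they had no t0 counts, and the bounds of the last 3 lie below the fold of MSX2 (491), which is not among the 12. PCAT14, a long noncoding RNA (chromosome 22, 23536881 to 23547797, + strand, GRCh38), was at 1.22, 1.59 and 1.09 CPM at t0 and 1420, 724 and 1012 CPM in BA (log2 change 9.59 ± 0.51 (SE), adjusted p = 1.07e-06). It was high in all 3 BA libraries and had reached 1494 ± 1458 CPM (SD, n = 3) at 24 h. GLIS1, a Krüppel-like zinc-finger factor, had 2 t0 counts and stood at 11.4, 21.1 and 17.4 CPM, a ratio of 689 with a counting interval of 190 to 5694. EVX1-AS and GATA6-AS1 overlap or lie beside the genes they are named for, and since the strand used in counting is not given in the sources used here, their reads cannot be told apart from those genes. They had no t0 counts and were at least 228-fold and 302-fold higher, and at least 71.4-fold and 59.5-fold without BA replicate 1.

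The 12 largest falls were SIX6, HTR1A, HMX2, GBX2, VGF, SORBS2, JAKMIP2-AS1, LRAT, RP11-187O7.1, SFRP1, D21S2088E and BTBD17. HTR1A, a serotonin receptor, was at 29.2, 14.3 and 14.6 CPM at t0 and 0, 0.265 and 0.213 CPM in BA (log2 change -6.47 ± 0.69 (SE), adjusted p = 0.000106). HMX2, a homeobox gene, was at 8.01, 19.2 and 14 CPM at t0 and 0.131, 0.165 and 0.183 CPM in BA (log2 change -6.28 ± 0.42 (SE), adjusted p = 4.69e-06). GBX2, a homeobox gene of the midbrain-hindbrain border, was at 39.7, 2.01 and 2.36 CPM at t0 and 0.263, 0.0992 and 0.0914 CPM in BA (log2 change -5.74 ± 0.62 (SE), adjusted p = 0.000115), and its log2 change was -4.57 without BA replicate 1. In these 3 genes all BA libraries were below 0.3 CPM. VGF, a secreted neuropeptide precursor, was at 136, 148 and 206 CPM at t0 and 0.328, 9.89 and 7.10 CPM in BA (log2 change -5.13 ± 0.68 (SE), adjusted p = 0.000398), and SORBS2, an adaptor of the actin cytoskeleton, at 130, 126 and 137 CPM at t0 and 0.919, 4.76 and 6.58 CPM in BA (log2 change -5.06 ± 0.38 (SE), adjusted p = 1.15e-05). LRAT, the enzyme that stores retinol as esters, was at 150, 135 and 110 CPM at t0 and 17.3, 2.65 and 2.96 CPM in BA (log2 change -4.50 ± 0.52 (SE), adjusted p = 0.000183) and changed by -5.23 without BA replicate 1. The fall of RP11-187O7.1 rests on a single library, since it was at 0.159, 0.744 and 39.8 CPM at t0 and 0.0656, 0.496 and 0.427 CPM in BA. Its call was lost without t0 replicate 3 (log2 change -0.50, adjusted p = 0.628) and without BA replicates 2 or 3 (adjusted p of 0.0673 and 0.212). JAKMIP2-AS1 is an antisense gene, whose reads cannot be told from those of its partner.

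The smallest adjusted p among rises belonged to GATA3, WNT3, PNRC1, MSX2, GATA6 and TBX3, and among falls to SFRP1, JAKMIP2-AS1, HMX2, UNC13A, SORBS2 and D21S2088E. GATA3, a zinc-finger factor of trophoblast and surface ectoderm (chromosome 10, 8045378 to 8075203, + strand, GRCh38), was at 0.902, 0.162 and 0.141 CPM at t0 and 135, 56.5 and 57.1 CPM in BA (log2 change 7.96 ± 0.28 (SE), adjusted p = 6.23e-08). PNRC1, a nuclear receptor coactivator, was at 5.15, 7.41 and 6.31 CPM at t0 and 29.1, 42.8 and 38.8 CPM in BA (log2 change 2.60 ± 0.10 (SE), adjusted p = 1.03e-07), with a narrow spread in both groups. UNC13A, a synaptic vesicle priming protein, was at 190, 186 and 178 CPM at t0 and 24.9, 38.1 and 37.7 CPM in BA (log2 change -2.41 ± 0.16 (SE), adjusted p = 5.88e-06). In the authors' deposited table for BA at 48 h, all 29 of the genes named here by size or by p had an adjusted p below 0.05 and the same direction. These genes were chosen as extremes in libraries of the same series, so this is not independent support. Log2 changes there were 3.07 for GATA6 and 3.54 for TBX3, against 11.6 and 10.48 here. For PCAT14 and MSX2 they were 9.17 and 8.52, against 9.59 and 8.94 here. The header of that table does not name its reference group.

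The cells in E6 at 48 h had the same time in culture without BMP4 and Activin A. In E6 at 48 h, GATA3 stood at 0.207 ± 0.162 CPM, BAMBI at 9.72 ± 0.365 CPM, EOMES at 0.934 ± 1.27 CPM and WNT3 at 0.942 ± 0.487 CPM (SD, n = 3). BA was higher than E6 for GATA3 (log2 difference 8.79, adjusted p = 2.19e-08), BAMBI (log2 difference 5.07, adjusted p = 1.85e-07), EOMES (log2 difference 8.22, adjusted p = 5.69e-06) and WNT3 (log2 difference 6.15, adjusted p = 2.93e-08). SFRP1 stood at 1687 ± 405 CPM in E6, and BA was lower (log2 difference -4.91, adjusted p = 1.65e-08). PNRC1, by contrast, stood at 34.1 ± 5.38 CPM in E6 and did not pass the test against BA (log2 difference 0.13, adjusted p = 0.376). For DNMT3B, E6 stood at 1178 ± 452 CPM and E8 at 987 ± 689 CPM, both with a wide spread, and the difference from E6 missed the threshold (log2 difference -0.90, adjusted p = 0.0862). By library, DNMT3B was at 1700, 914 and 920 CPM in E6 and 1782, 625 and 554 CPM in E8, against 533, 628 and 618 CPM in BA. In replicates 2 and 3 E8 was thus about as low as BA, and in replicate 1 only BA was low. USP44 was lower in BA than in E6 (log2 difference -2.13, adjusted p = 0.0164), and SOX2, at 334 ± 66.3 CPM in E6, was not called (log2 difference -1.99, adjusted p = 0.11). In E8 at 48 h SOX2 was at 218, 138 and 129 CPM, against 3.61, 154 and 125 CPM in BA. Of the 20 streak genes 15 were higher in BA than in E6 and 15 higher than in E8. Of the 25 pluripotency genes, 5 were lower than in E6 (9.72% of all tested genes were) and 7 lower than in E8 (7.31%), while 2 and 3 were higher (12.4% and 10.3%).

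**Figure D3:**
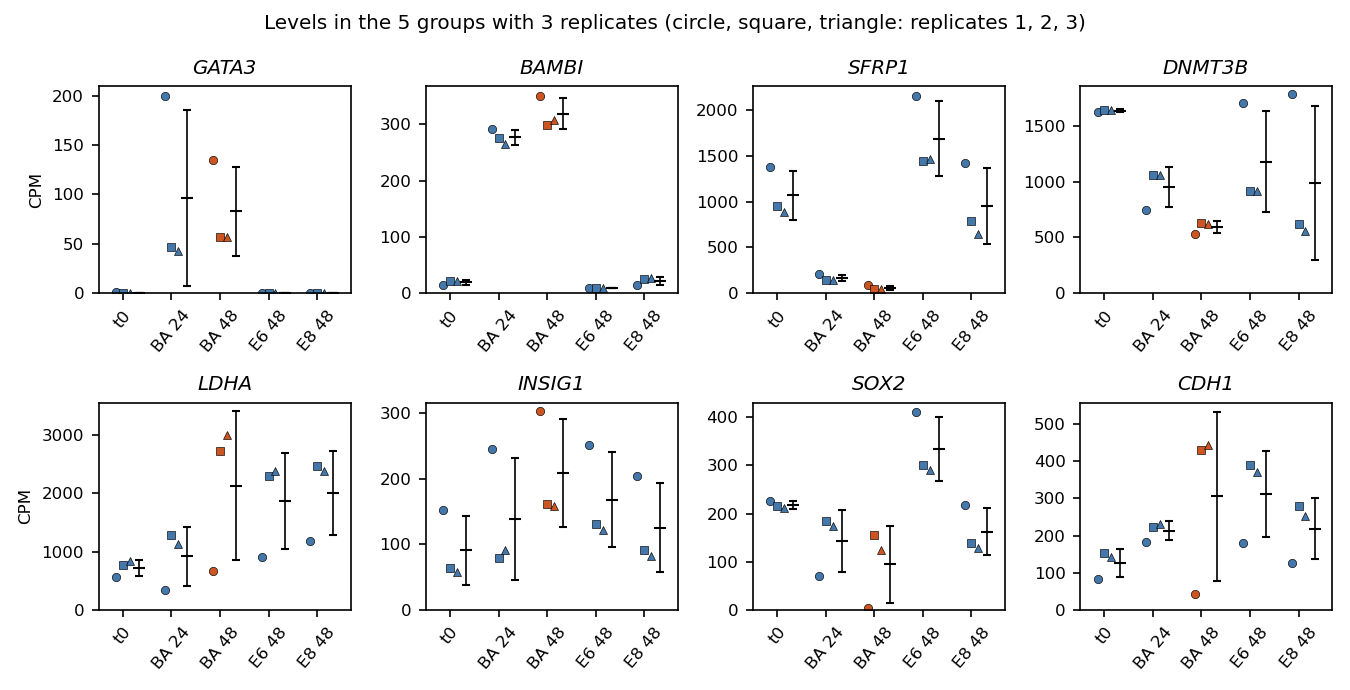
CPM of 8 genes in the 5 groups with 3 replicates, on linear axes from 0, with BA at 48 h in orange, the other groups in blue and a bar for the mean and SD. SFRP1 is low at 24 h and 48 h in BA and high at t0, in E6 and in E8, while LDHA is raised in replicates 2 and 3 of all 3 media at 48 h.

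From 24 h to 48 h in BA, 2158 genes (10% of those tested) changed. GATA3 and WNT3 stood at 96.5 ± 89.4 CPM and 87.0 ± 48.1 CPM at 24 h and were not called between the times (adjusted p of 0.853 and 0.195). Several endoderm and mesoderm genes rose further, among them SOX17 from 2.42 ± 4.2 CPM (log2 difference 5.59, adjusted p = 0.000443), GATA6 from 13.1 ± 21.4 CPM (log2 difference 3.24, adjusted p = 0.000143), TBX3 from 22.4 ± 37.4 CPM (log2 difference 3.34, adjusted p = 0.000143) and HAND1 from 3.28 ± 4.88 CPM (log2 difference 4.65, adjusted p = 0.0018), each with SD over n = 3. Over this interval 12 of the 19 tested mesoderm genes rose and 1 fell, and 6 of the 20 streak genes rose, against 6.32% of all tested genes higher and 3.69% lower. SFRP1 fell again, from 168 ± 37.4 CPM (log2 difference -1.58, adjusted p = 0.000145).

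The replicates did not respond alike, which shows when each BA library is set against the t0 library of its own number. Over 11020 genes of at least 10 CPM, the log2 differences of pairs 2 and 3 correlated across genes at r = 0.911, and pair 1 correlated with pairs 2 and 3 at 0.597 and 0.582. These are descriptions across genes, which are not independent replicates, and the pairs differ in depth and in the library traits given above. Of 1949 genes of that level that rose with the same sign in all pairs, 280 had a difference at least 1 log2 unit larger in pair 1 than in the mean of the other pairs, 153 at least 1 unit smaller, and 1516 lay within 1 unit. Of 1863 that fell alike, the counts were 114, 28 and 1721. In 47 genes the pairs moved at least 2-fold in opposite directions, down in pair 1 and up in pairs 2 and 3 for 41 and the reverse for 6, and 1 of the 47, GDF3, was called.

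**Figure D4:**
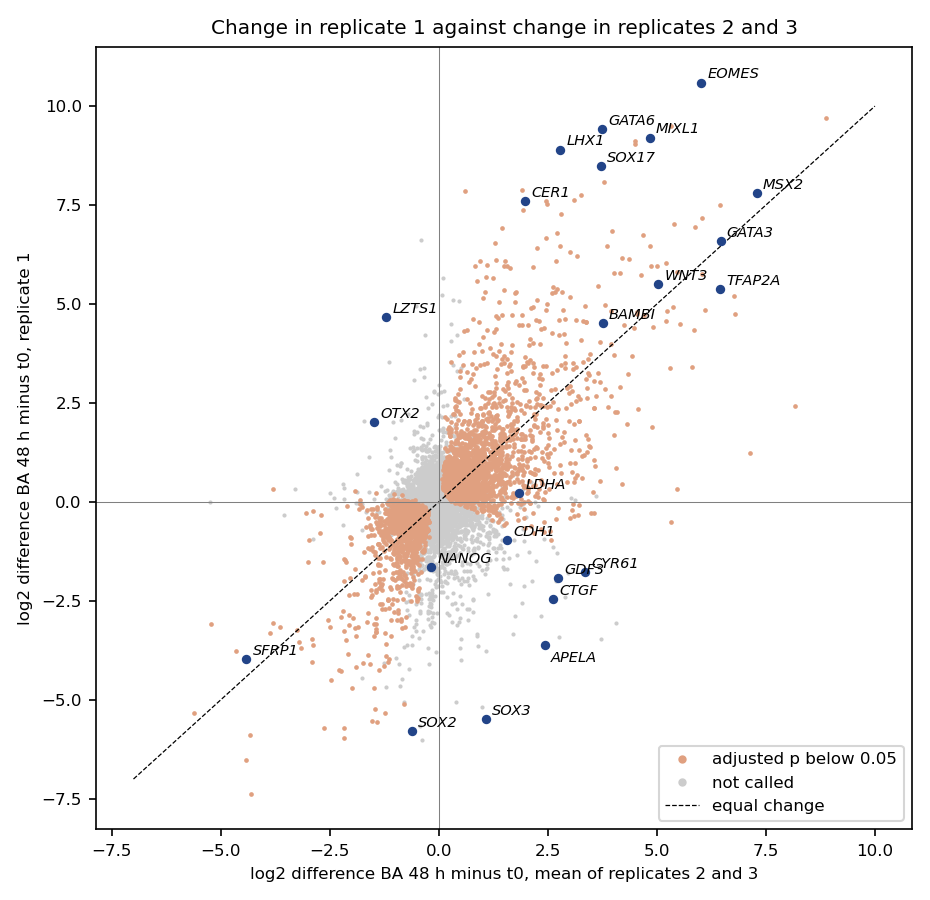
Log2 difference between BA at 48 h and t0 in replicate 1 against the mean of replicates 2 and 3, for 11020 genes of at least 10 CPM, with called genes in orange and some genes named. MSX2, GATA3, WNT3 and SFRP1 lie near the line of equal change, EOMES, CER1 and LHX1 far above it, and CYR61 and CTGF to the lower right.

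The genes with opposite changes include several known to be driven by YAP and by TGF-beta, which were chosen after their values were seen. CYR61, a matricellular protein and YAP target, was at 72.0, 90.5 and 95.1 CPM at t0 and 20.6, 944 and 953 CPM in BA (adjusted p = 0.255). CTGF, of the same family, was at 124, 79.5 and 83.2 CPM at t0 and 22.3, 481 and 521 CPM in BA (adjusted p = 0.502). TAGLN, an actin-binding protein, was at 174, 114 and 121 CPM at t0 and 61.5, 556 and 546 CPM in BA (adjusted p = 0.606). In each of these 3 genes BA replicate 1 was the lowest of the 6 libraries and BA replicates 2 and 3 the highest. CDH6, a cadherin, was at 73.0, 2.65 and 3.77 CPM at t0 and 6.17, 46.2 and 50 CPM in BA and APELA, a ligand of APLNR, at 51.6, 32.1 and 25.3 CPM at t0 and 3.74, 148 and 165 CPM in BA (adjusted p of 0.187 and 0.224). LZTS1 went the other way, at 36.5, 41.2 and 41.5 CPM at t0 and 945, 17.7 and 17.6 CPM in BA (adjusted p = 0.212). With replicates 2 and 3 only, the log2 changes were 3.40 for CYR61, 2.67 for CTGF, 3.96 for CDH6, 2.51 for APELA and -1.18 for LZTS1.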

How the data were processed

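Poly(A) RNA of H9 cells was extracted with a Nucleospin kit and made into TruSeq mRNA libraries, per the labels' protocols. The authors deposited whole read counts for 58581 genes per library, named by the symbols of GENCODE 23, per the file headers. For alignment, counting and testing the submitters' processing notes give hg38, featureCounts and DESeq2, with no versions, and the strand setting is not given in the sources used here. A further table deposited by the authors lists log2 fold changes and raw and adjusted p-values per gene, and is used only where named.

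Counts were scaled by TMM, filtered with filterByExpr and tested with edgeR's quasi-likelihood method (R 4.3.3 with edgeR 4.0.16 and limma 3.58.1). The fit covered the 15 libraries of the 5 groups with 3 replicates, so that all share an estimate of spread, with group and replicate number as terms. It left 8 residual degrees of freedom and a common biological coefficient of variation of 0.207. The threshold was an adjusted p of 0.05 (Benjamini-Hochberg). Each SE was computed back from the test, as the size of the log2 change divided by the square root of the F statistic. It does not measure how far a change moved when a library was left out. The deviations of same-numbered libraries from their group means correlated at 0.744, 0.694 and 0.625 for numbers 1, 2 and 3, so the numbers were taken to pair the libraries. Libraries numbered 2 and 3 also correlated across the numbers, at 0.636 and 0.665, so these values set apart number 1 and do not separate 2 from 3. Replicates 2 and 3 differed by more than sampling noise, with chi-square per gene of 12.0 at t0 and 17.3 in BA, and were kept as 2 samples. This measure covers the sampling of reads only, so it cannot tell separate cultures from repeated libraries of the same culture. Pair differences use log2(CPM + 0.5). Positions come from GENCODE release 29 on GRCh38, and promoter sequence from RefSeq on GRCh38.p14.

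The genes named were 11 markers, the 12 largest rises and falls of at least 10 CPM, the 6 smallest p in each direction, and up to 4 called members of each list, with a few more of known role. Some list members are counted and plotted but not reported by name here. The members and gene lists were chosen with earlier results of these data known. A gene at 0 counts in all t0 libraries has a lower bound against 3 counts over the group, and one with 1 to 3 counts has an exact 95% interval, both for counting error only. The scripts were tested on simulated counts. The 16 alternatives were the model without the block or with fewer libraries, other scalings and filters, DESeq2 1.42.0, and leaving out each library.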

Additional observations from a re-analysis of the deposited data

Results flagged for a closer look

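A time course with 1 library per point lies outside the comparison of 48 h with t0. In its BA library at 42 h, 6 markers stood above every t0 and E8 library, so they are listed here as values with no replicate. TBXT, the streak factor, stood at 353 CPM at 42 h, against at most 1.12 CPM in the t0 and E8 libraries and 91.3 CPM in BA replicate 1 at 48 h. EOMES stood at 1159 CPM, against at most 3.72 CPM, and MIXL1 at 1176 CPM, against at most 4.49 CPM. GSC stood at 38.8 CPM, against at most 0.115 CPM. MESP1 stood at 53 CPM, against at most 0.327 CPM, and SOX17 at 81.9 CPM, against at most 0.434 CPM. TBXT, EOMES, MIXL1, GSC and MESP1 were thus higher at 42 h than in BA replicate 1 at 48 h, and SOX17 was lower, without a test of these differences.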

How the results depend on the processing

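The count of called genes was 6153, with 3512 higher and 2641 lower. Without the replicate block it was 1373 (990 higher, 383 lower). With only the 6 libraries and the replicate block it was 2187 (1519 and 668), and without the block 351 (292 and 59). With replicates 2 and 3 only it was 10751 (5490 and 5261). Leaving out 1 library gave 3460 to 6550 called genes, 2060 to 3716 higher and 1384 to 3069 lower, the lowest total without t0 replicate 3. Other scalings, filters and DESeq2 stayed within 1.5 times. Of 139 called genes named by the rules, 33 passed with the same direction under all 16 alternatives, and 53 were not called without the block, 29 on only the 6 libraries with the block and 100 on the 6 libraries without it. None of the 139 changed direction.

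Genes that changed direction were not called. Leave-one-out log2 changes ran from -0.78 to 0.01 for NANOG, -0.33 to 0.74 for PAX6, -2.55 to 1.04 for FOXA2, -0.24 to 0.39 for CDH2, -0.59 to 0.59 for VIM, -0.86 to 0.64 for SOX3, -1.44 to 0.83 for OTX2, -0.05 to 2.13 for TAGLN and -1.13 to 3.16 for LZTS1. FOXA2 stood at 1.90 without the block, 0.08 with only the 6 libraries and the block and 1.91 with the 6 libraries and no block. SOX3 stood at 0.53 without the block and 0.54 with the 6 libraries and no block, and OTX2 at -0.39 with only the 6 libraries and the block. With replicates 2 and 3 only the log2 changes were -0.15 for CDH2, -0.54 for VIM, 1.14 for SOX3, -1.46 for OTX2, -1.18 for LZTS1 and -0.38 for BMP2. The cause was not tested. At totals of 16390111 counts or more, genes under about 1 CPM rest on few reads.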
